A study of Homo sapiens with 9 samples.

Results

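The genes described here are 55 chaperones, co-chaperones and folding factors of the cytosol and the endoplasmic reticulum (ER), among 58929 genes in the deposited count table. They were taken from the table by gene symbol, from a list of protein functions drawn up with earlier results of these data known. The rule itself used no measured value. All 55 passed the filter on low counts that left 16065 genes for testing, so no member dropped out. The cells were FaDu, an established squamous carcinoma line of the hypopharynx (labelled HNSCC), with the genotype given as wild type. That term does not mean free of tumor mutations, which the paper lists for its screened lines, FaDu among them. Bulk RNA-seq was done on 3 libraries of each of 3 groups, which received the vehicle dimethyl sulfoxide (DMSO), 250 nM samuraciclib, or the same concentration of YKL-5-124. Polyadenylated RNA was captured on oligo-dT beads before library preparation. Both compounds are selective inhibitors of CDK7, the kinase that activates other CDKs and, within TFIIH, phosphorylates RNA polymerase II. YKL-5-124 binds its target covalently, whereas samuraciclib competes with ATP. Treatment lasted 48 h by the sample protocol and the published methods, although the series design text gives 72 h. The libraries share 1 batch label, and the published methods call them biological replicates without saying what was grown separately. All libraries come from a single line, and the 2 comparisons with DMSO share their control libraries.

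Chaperones bind proteins that are not yet folded, or no longer folded, and keep them from aggregating. In the cytosol, HSP70 proteins work in cycles driven by ATP, in which J-domain proteins deliver clients and stimulate hydrolysis while BAG and HSP110 proteins release the nucleotide. HSP90 takes over clients such as kinases and receptors, and the ring-shaped complex TRiC folds actin, tubulin and other proteins in its cavity. Heat shock factor 1 (HSF1) switches on many of these genes when unfolded proteins accumulate, by binding heat shock elements in their promoters. The ER has its own HSP70 (BiP, encoded by HSPA5), HSP90 (GRP94, encoded by HSP90B1), disulfide isomerases and lectin chaperones. Their genes respond to the unfolded protein response through ATF6 and XBP1, which recognise ER stress elements.

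Promoter sequence from RefSeq (build GRCh38.p14), covering 250 bases before and 50 bases after each transcription start, was matched by symbol for 49 of the 55 members, in 70 windows. BAG4, FKBP4, HSF1, HSPA14, PDIA3 and ST13 had no match. A heat shock element was searched as GAA, any 2 bases, TTC, any 2 bases and GAA, and a pair of inverted heat shock units as GAANNTTC. The ER stress element was searched as CCAAT and CCACG separated by any 9 bases, and the element recognised by XBP1 and ATF6 as TGACGTGG, each on both strands. The pair is contained in the full heat shock element. The full heat shock element occurred in 8.57% of the member windows and in 0.491% of the 34796 distinct promoter windows of all genes, and the pair in 24.3% and 6.79%. For the ER stress element the shares were 11.4% and 0.0776%, and for the shorter element 1.43% and 0.733%. The 8 member windows with an ER stress element belong to 6 genes, as the same CANX element lies in overlapping windows of different starts. These matches describe letters in a window and do not show binding.

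The search allowed no mismatch, so elements with an altered unit were missed. Of the 7 members called higher in any comparison described below, none held an exact full heat shock element or ER stress element in its window, and 4 held the pair. Those 4 sequences are shown first because they belong to genes that rose, with the pair in capitals and up to 30 bases on either side, and were chosen after the values had been seen. They lie at chr6:31815407-31815474 on the plus strand, chr6:31827603-31827670 on the plus strand, chr7:76302461-76302528 on the plus strand and chr12:119178813-119178880 on the plus strand. The first capital is 106, 105, 182 and 88 bases before the RefSeq transcription start of that window. RefSeq starts differ from the gene spans of the count table given below. On those spans, the HSPB8 window lies inside the gene and the HSPA1A window reaches into it.
HSPA1A: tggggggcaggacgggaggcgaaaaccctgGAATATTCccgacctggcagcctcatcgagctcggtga
HSPA1B: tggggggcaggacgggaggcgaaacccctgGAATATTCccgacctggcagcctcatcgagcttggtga
HSPB1: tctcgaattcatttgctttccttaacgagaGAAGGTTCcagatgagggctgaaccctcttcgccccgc
HSPB8: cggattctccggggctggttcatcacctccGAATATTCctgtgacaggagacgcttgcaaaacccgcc
The HSPA1A and HSPA1B stretches are the same at 66 of 68 bases. In both, the unit after the pair reads GAC where the full heat shock element was searched with GAA.

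A set of 5 further windows, also chosen after the values had been seen, show elements of genes that were not called higher, with the element in capitals. HSP90AA1 (chr14:102087090-102087162, minus strand) and HSP90AB1 (chr6:44247748-44247820, plus strand) each hold a full heat shock element, HSPA5 (chr9:125241361-125241439, minus strand) and CALR (chr19:12938359-12938432, plus strand) an ER stress element, and HYOU1 (chr11:119057356-119057423, minus strand) the shorter element.
HSP90AA1: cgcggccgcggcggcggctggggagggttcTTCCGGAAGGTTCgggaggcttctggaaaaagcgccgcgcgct
HSP90AB1: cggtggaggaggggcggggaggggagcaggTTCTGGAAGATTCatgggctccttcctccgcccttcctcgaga
HSPA5: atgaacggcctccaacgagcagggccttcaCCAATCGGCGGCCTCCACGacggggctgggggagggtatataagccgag
CALR: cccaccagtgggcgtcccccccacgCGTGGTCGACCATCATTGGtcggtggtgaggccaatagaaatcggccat
HYOU1: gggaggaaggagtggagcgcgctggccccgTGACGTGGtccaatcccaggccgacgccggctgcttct
Where the capitals read in the reverse orientation, as in HSP90AA1, HSP90AB1 and CALR, the match is on the opposite strand.

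Libraries held 18096180 to 28018126 counts. Below, CPM stands for counts scaled to the TMM-adjusted library size. The members took 2.13% to 2.29% of all counts in each library, and 39 of them had more than 1000 counts in every library. In 3 libraries, DMSO 3, samuraciclib 2 and YKL-5-124 2, the 7SL RNA gene RN7SL2 stood at 24.9 to 59.3 CPM against 696 to 981 CPM in the other 6, so calls are also given without these libraries where they change. The labelled cell type was checked on markers. The 8 squamous epithelial genes summed to 4904 to 6047 CPM, with KRT5 and KRT17 highest, and 2 of them were called higher with each compound and 1 lower with YKL-5-124. The 5 immune markers summed to at most 0.468 CPM and the 6 fibroblast markers to 3.80 to 6.06 CPM, nearly all COL1A1, with LUM at 0 in every library. The 4 endothelial markers summed to 29.99 to 32.1 CPM in DMSO, 20.0 to 23.8 CPM with samuraciclib and 25.5 to 28.4 CPM with YKL-5-124, nearly all CDH5, which was called lower with samuraciclib, with KDR at 0. The part of these markers in the chaperone results was not tested.

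To compare genes, levels were divided by the length of the gene model, which counts all annotated exons and so understates genes with long unused exons. On this scale the most abundant member in DMSO was HSP90AB1, the constitutive cytosolic HSP90, at 1311 ± 62.6 CPM per kb (mean ± SD, n = 3). The inducible isoform HSP90AA1 followed at 629 ± 32.9 CPM per kb. HSPA8, the constitutive HSP70, stood at 336 ± 21.9 CPM per kb and CALR, the ER lectin calreticulin, at 312 ± 22.5 CPM per kb, which lies within the summed SDs of both. The inducible HSP70 genes HSPA1A and HSPA1B were far lower, at 30.8 ± 4.71 and 36.4 ± 4.24 CPM per kb, next to BAG3 at 40.2 ± 1.97 CPM per kb. The lowest levels were those of HSPA4L (1.03 ± 0.0662), DNAJB5 (0.753 ± 0.0809) and HSPB8 (0.111 ± 0.0151 CPM per kb). Among ER chaperones, HSP90B1 (171 ± 8.20) and HSPA5 (148 ± 5.44 CPM per kb) were at about the level of the TRiC subunits, of which CCT5 was highest at 210.2 ± 6.26 CPM per kb and CCT8 lowest at 74.3 ± 4.20 CPM per kb. The sensors ATF6 (9.06 ± 0.130) and ERN1 (1.22 ± 0.0557 CPM per kb) were near the bottom of the order.

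**Figure D1:**
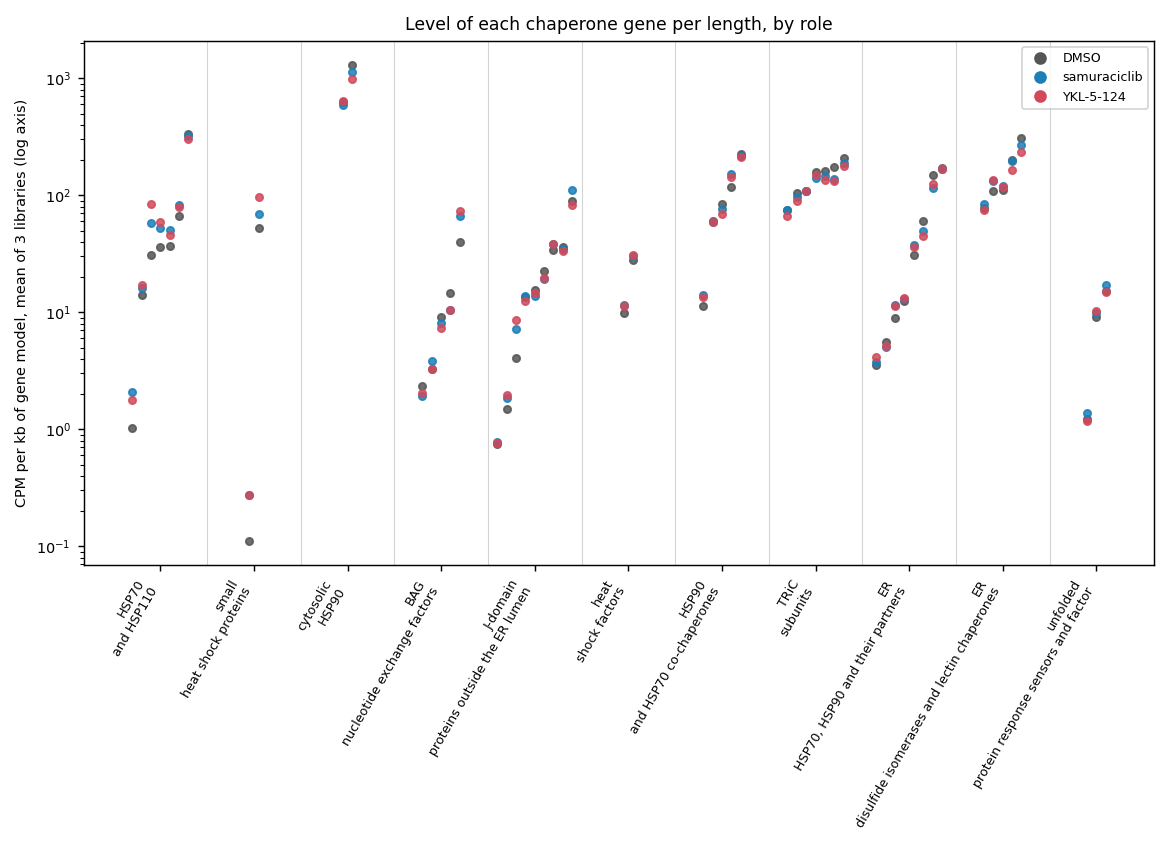
Mean level of each of the 55 members in CPM per kb of gene model (log axis), by role, with grey points for DMSO, blue for samuraciclib and red for YKL-5-124 (n = 3 each, no error bars). The cytosolic HSP90 pair sits highest and HSPB8, the lower gene of the small heat shock proteins, lowest, while most members differ far more from each other than between treatments.

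A member was called where the adjusted p (edgeR quasi-likelihood F-test, two-sided, Benjamini-Hochberg over 16065 genes) fell under 0.05 and the log2 fold change exceeded 0.5 in either direction. With YKL-5-124, 7 of 55 members were called higher than in DMSO (12.7%, against 11.9 percent of all genes tested) and 0 were called lower (9.93 percent of all genes). With samuraciclib, 6 members were called higher (10.9%, against 8.17 percent of all genes) and 0 lower (9.55 percent of all genes). The shares of members called higher were thus close to the background in both comparisons. Beyond a log2 fold change of 1, 3 members were higher with YKL-5-124 (HSPA1A, HSPB8 and DNAJB2, against 5.07 percent of all genes), 2 with samuraciclib (HSPA4L and HSPB8, against 2.93 percent) and 0 between the compounds (1.21 percent). No member fell beyond the fold threshold, and at an unadjusted p below 0.05 the count was also 0 with each compound. DESeq2 also called 0 members lower in either comparison. The median log2 fold change of the members was -0.028 with YKL-5-124 and 0.061 with samuraciclib, beside 0.014 and 0.001 over all genes. In bulk RNA, a change in the make-up of the culture and a change per cell cannot be told apart.

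At the adjusted p alone, without the fold threshold, 17 members were higher with YKL-5-124 (24.1 percent of all genes) and 18 lower (25.2 percent of all genes). With samuraciclib these counts were 20 higher (21.0 percent of all genes) and 12 lower (23.1 percent of all genes). Most of these members lay inside the fold threshold, on both sides of 0. Without a test of the shares, both YKL-5-124 counts and the higher samuraciclib count stood above the background, and the lower samuraciclib count below it. A small change passes the adjusted p more readily in genes with many counts, and 39 members had more than 1000 in every library. The part of count depth in these shares was not tested. When counts were scaled by library size alone, under which the all-gene median shifted to 0.143 with YKL-5-124 and 0.06 with samuraciclib, the counts at the adjusted p alone became 25 higher (35.6 percent of all genes) and 9 lower (16.7 percent of all genes) with YKL-5-124. With samuraciclib they became 25 higher (26.6 percent of all genes) and 8 lower (19.2 percent of all genes). The members thus shifted upward along with all genes. DNAJA2 and DNAJB6 changed direction under that scaling in the comparison of YKL-5-124 with DMSO, and small falls below are relative to the TMM scale.

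**Figure D2:**
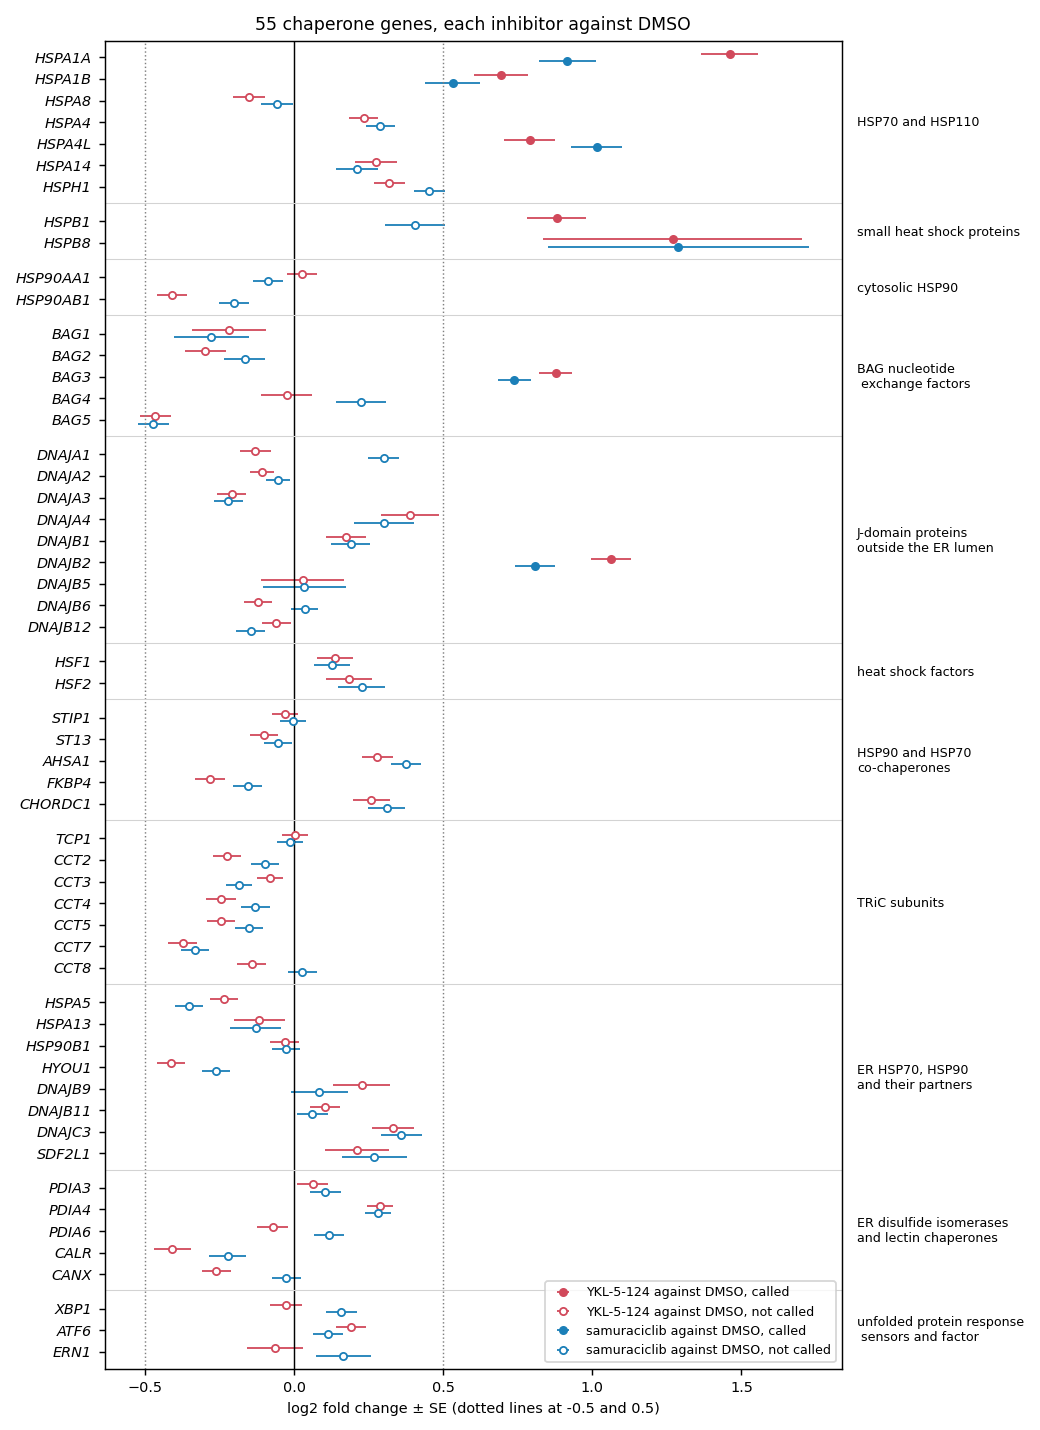
Log2 fold change ± SE of the 55 members against DMSO, by role, with YKL-5-124 in red and samuraciclib in blue; filled points were called and dotted lines mark -0.5 and 0.5. The called genes, all to the right, are HSPA1A, HSPA1B, HSPA4L, HSPB8, BAG3 and DNAJB2 with both compounds and HSPB1 with YKL-5-124, and no point lies left of -0.5.

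The cytosolic HSP70 and HSP110 group held 3 of the called members. HSPA1A (ENSG00000204389, chr6:31815464-31817946), the major stress-inducible HSP70, stood at 73.3, 66.6 and 89.4 CPM in the DMSO libraries, 139, 136 and 159 CPM with samuraciclib and 189, 204 and 241 CPM with YKL-5-124. The 3 groups did not overlap, with DMSO lowest and YKL-5-124 highest. Against DMSO, the log2 fold change was 1.46 ± 0.095 (adjusted p = 6.34e-10) with YKL-5-124 and 0.92 ± 0.095 (adjusted p = 4.12e-07) with samuraciclib. HSPA1B (ENSG00000204388, chr6:31827735-31830255), which encodes a protein almost identical to that of HSPA1A, stood at 83.2, 88.3 and 104 CPM in the DMSO libraries, 128, 125 and 147 CPM with samuraciclib and 126, 153 and 167 CPM with YKL-5-124. Each treated library was above every DMSO library, while the 2 treated groups overlapped. This gave a log2 fold change of 0.69 ± 0.091 (adjusted p = 5.04e-06) with YKL-5-124 and 0.53 ± 0.091 (adjusted p = 0.000115) with samuraciclib. Without DMSO 1 or samuraciclib 3 the samuraciclib value was 0.46 in each case and no longer past the fold threshold.

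The 2 genes cannot be fully separated by short reads, as 72.3% of the 100-base windows of the HSPA1A transcript and 72.7% of those of HSPA1B also occur in another annotated transcript. Their summed counts were therefore fitted as 1 gene, although the sum does not recover reads that counting may have left out. The sum rose by 1.10 ± 0.090 on the log2 scale with YKL-5-124 (adjusted p = 1.49e-08) and by 0.72 ± 0.090 with samuraciclib (adjusted p = 3.45e-06). Between the compounds the summed value was 0.37 ± 0.088 higher with YKL-5-124 (adjusted p = 0.0049), which is within the fold threshold. HSPA1L, the third HSP70 gene of the same cluster, had 10 to 36 counts per library and was not a member.

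HSPA4L (ENSG00000164070, chr4:127781821-127840733), an HSP110-type exchange factor first described in testis, stood at 12.4, 11.1 and 12.5 CPM in the DMSO libraries, 24.7, 24.5 and 23.8 CPM with samuraciclib and 19.6, 22.6 and 20.1 CPM with YKL-5-124. All treated libraries were above DMSO, and here samuraciclib was the higher of the 2 compounds without overlap. In the fit, the log2 fold change was 0.79 ± 0.086 (adjusted p = 5.72e-07) with YKL-5-124 and 1.01 ± 0.086 (adjusted p = 3.09e-08) with samuraciclib. Its close relatives were also higher, by less. HSPH1 (HSP105) went from 307 ± 21.6 CPM in DMSO to 421 ± 3.58 CPM with samuraciclib and 383 ± 15.1 CPM with YKL-5-124, a log2 fold change of 0.32 ± 0.053 (adjusted p = 6.87e-05) with YKL-5-124 and 0.45 ± 0.053 (adjusted p = 1.64e-06) with samuraciclib. Without the 3 libraries low in RN7SL2 or without DMSO 3, its samuraciclib value was 0.51 and was called. HSPA4 (APG-2) was at 0.23 ± 0.048 (adjusted p = 0.000547) with YKL-5-124 and 0.29 ± 0.048 (adjusted p = 7.75e-05) with samuraciclib, and HSPA14, a ribosome-associated HSP70, at 0.27 ± 0.070 (adjusted p = 0.00335) with YKL-5-124 and 0.21 ± 0.070 (adjusted p = 0.0209) with samuraciclib. The table holds another row named HSPA14, with an identifier that GENCODE assigns to MSANTD7, and it was left out. With it counted as a member, 1 member would be called lower in each comparison with DMSO, at -0.81 with YKL-5-124 and -0.52 with samuraciclib.

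HSPA8 (HSC70), which accounts for most counts of this group, did not rise. Values were 1558, 1576 and 1750.2 CPM in the DMSO libraries, 1496, 1599 and 1593 CPM with samuraciclib and 1395, 1555 and 1445 CPM with YKL-5-124. The YKL-5-124 libraries lay just below the DMSO libraries. The log2 fold change was -0.15 ± 0.055 (adjusted p = 0.0277) with YKL-5-124 and -0.059 ± 0.055 (adjusted p = 0.408) with samuraciclib.

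Both small heat shock proteins, which hold unfolded proteins without using ATP, were called higher with YKL-5-124. HSPB1 (HSP27; ENSG00000106211, chr7:76302544-76304295) stood at 88.9, 82.1 and 87.6 CPM in the DMSO libraries, 115, 98.4 and 129 CPM with samuraciclib and 143, 142 and 192 CPM with YKL-5-124. The groups were ordered DMSO, samuraciclib, YKL-5-124 with no overlap between them. Against DMSO, the log2 fold change was 0.88 ± 0.10 (adjusted p = 8.80e-07) with YKL-5-124, a call, and 0.40 ± 0.10 (adjusted p = 0.00305) with samuraciclib, short of the fold threshold. Without the 3 libraries low in RN7SL2, the samuraciclib value was 0.51 and was called. HSPB8 (HSP22; ENSG00000152137, chr12:119178642-119221131), which works with BAG3 in selective autophagy, had only 5 to 22 counts per library. Its levels were 0.343, 0.266 and 0.339 CPM in the DMSO libraries, 0.655, 0.592 and 1.13 CPM with samuraciclib and 1.14, 0.588 and 0.632 CPM with YKL-5-124. All treated libraries were above all DMSO libraries, with 1 library of each treated group well above the other 2. This gave a log2 fold change of 1.27 ± 0.44 (adjusted p = 0.0219) with YKL-5-124 and 1.29 ± 0.44 (adjusted p = 0.0227) with samuraciclib. These calls were not made by DESeq2 (adjusted p = 0.0685 and 0.0669), nor without DMSO 2, DMSO 3 or the treated library with the highest value, samuraciclib 3 (0.96, adjusted p = 0.126) or YKL-5-124 1 (0.92, adjusted p = 0.129).

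**Figure D3:**
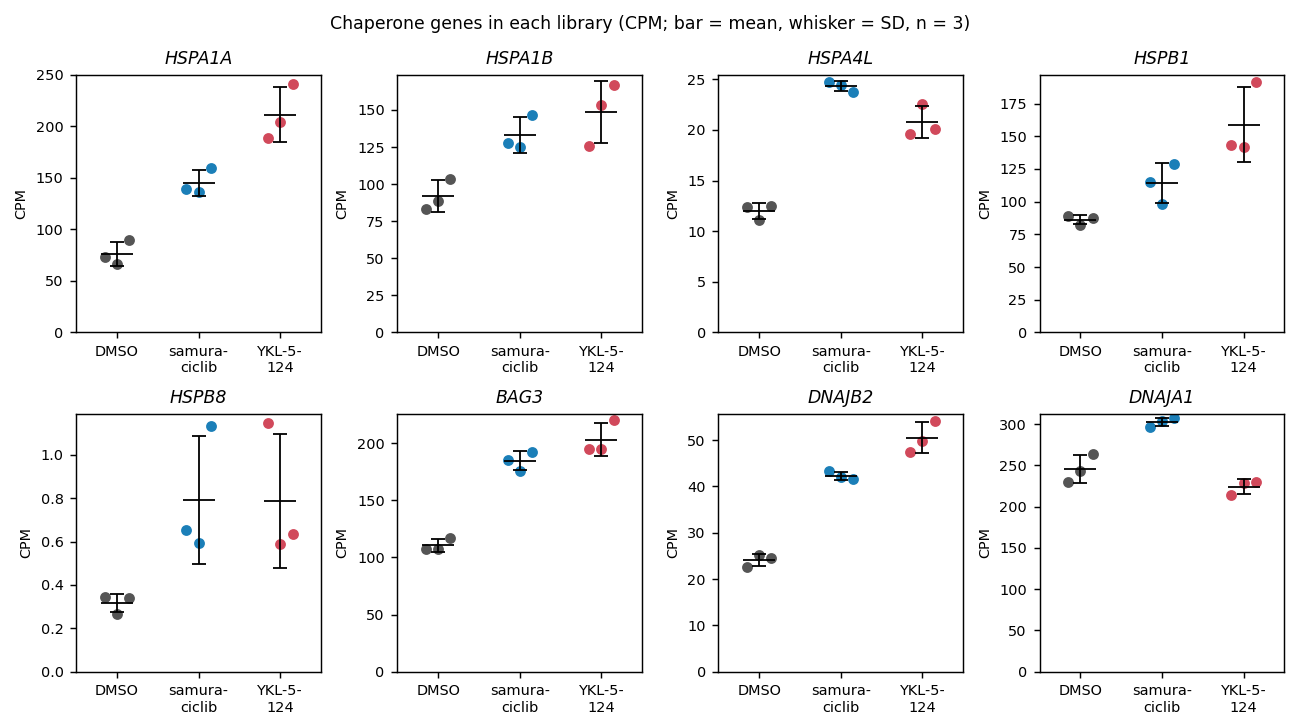
CPM in each library for the 7 called members and DNAJA1 (linear axes from 0; points are libraries, bars means and whiskers SD, n = 3). For the called members all treated points lie above the DMSO points, whereas DNAJA1 is highest with samuraciclib and lowest with YKL-5-124.

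The BAG proteins, which release nucleotide from HSP70, were not alike in direction. BAG3 (ENSG00000151929, chr10:119651370-119677819), the stress-inducible member that links HSP70 to small heat shock proteins and autophagy, stood at 107, 108 and 117 CPM in the DMSO libraries, 185, 176 and 192 CPM with samuraciclib and 195, 195 and 220.0 CPM with YKL-5-124. All treated libraries were above DMSO by more than the spread within any group. In the fit, the log2 fold change was 0.88 ± 0.056 (adjusted p = 4.59e-10) with YKL-5-124 and 0.74 ± 0.056 (adjusted p = 7.78e-09) with samuraciclib. BAG5, in contrast, had the lowest log2 fold change of all members in both comparisons. It was measured at 76.7, 76.1 and 77.5 CPM in the DMSO libraries, 56.9, 54.3 and 54.7 CPM with samuraciclib and 55.4, 57.8 and 53.4 CPM with YKL-5-124. Each treated library was below every DMSO library and the 2 treated groups overlapped. The change was -0.47 ± 0.051 (adjusted p = 5.86e-07) with YKL-5-124 and -0.47 ± 0.051 (adjusted p = 6.64e-07) with samuraciclib, just inside the fold threshold. BAG2, an inhibitor of the ubiquitin ligase CHIP, was at -0.30 ± 0.069 (adjusted p = 0.0015) with YKL-5-124 and -0.17 ± 0.069 (adjusted p = 0.0578) with samuraciclib, and 44.2% of its exonic bases overlap exons on the opposite strand, which cannot be separated if counting ignored strand. BAG1 was at -0.22 ± 0.12 (adjusted p = 0.152) and -0.28 ± 0.12 (adjusted p = 0.0787), and BAG4 at -0.025 ± 0.085 (adjusted p = 0.832) and 0.22 ± 0.085 (adjusted p = 0.0396), with YKL-5-124 and samuraciclib in that order.

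Among 9 J-domain proteins outside the ER lumen, 1 was called. DNAJB2 (ENSG00000135924, chr2:219279267-219286900), a neuronally enriched protein that sorts ubiquitinated clients to the proteasome, stood at 22.7, 25.1 and 24.6 CPM in the DMSO libraries, 43.3, 41.9 and 41.6 CPM with samuraciclib and 47.5, 49.9 and 54.1 CPM with YKL-5-124. The 3 groups did not overlap, and YKL-5-124 was highest. The log2 fold change was 1.06 ± 0.066 (adjusted p = 3.84e-10) with YKL-5-124 and 0.81 ± 0.067 (adjusted p = 2.65e-08) with samuraciclib. DNAJB1 (HSP40), the classical stress-inducible partner of HSPA1A, was not called. It stood at 119, 120.0 and 133 CPM in the DMSO libraries, 137, 133 and 155 CPM with samuraciclib and 129, 137 and 154 CPM with YKL-5-124. The lowest YKL-5-124 library was below the highest DMSO library. Against DMSO, the log2 fold change was 0.17 ± 0.067 (adjusted p = 0.0382) with YKL-5-124 and 0.19 ± 0.067 (adjusted p = 0.0286) with samuraciclib. DNAJA4 was higher at the adjusted p alone, at 0.39 ± 0.098 (adjusted p = 0.00307) with YKL-5-124 and 0.30 ± 0.099 (adjusted p = 0.0195) with samuraciclib. By library size alone its YKL-5-124 value was 0.52 and was called. DNAJA3, a mitochondrial J-domain protein with a cytosolic form, was lower, at -0.21 ± 0.048 (adjusted p = 0.00145) with YKL-5-124 and -0.22 ± 0.048 (adjusted p = 0.00106) with samuraciclib. DNAJA2 and DNAJB6 (with YKL-5-124) and DNAJB12 (with samuraciclib) were lower at the adjusted p alone, and all 3 lay between -0.15 and 0.034 in both comparisons, and DNAJB5 at 0.028 and 0.034 had adjusted p of 0.885 and 0.866.

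DNAJA1 (ENSG00000086061, chr9:33025211-33039907), a farnesylated J-domain protein that assists HSP70 in the cytosol, lay on opposite sides of DMSO with the 2 compounds. Values were 230.2, 243 and 264 CPM in the DMSO libraries, 297, 303 and 307 CPM with samuraciclib and 214, 229 and 229.5 CPM with YKL-5-124. The samuraciclib libraries were all above DMSO, and the YKL-5-124 libraries all below it by a small margin. This gave a log2 fold change of -0.13 ± 0.052 (adjusted p = 0.0448) with YKL-5-124 and 0.30 ± 0.052 (adjusted p = 0.000134) with samuraciclib. The difference between the compounds was -0.43 ± 0.052 (adjusted p = 1.51e-05), with a 95% interval of -0.54 to -0.32. Under scaling by library size alone its value with YKL-5-124 was -0.0027 (adjusted p = 0.968), so that the position below DMSO rests on the TMM scale.

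Neither heat shock factor was called. HSF1 stood at 147, 148 and 149.8 CPM in the DMSO libraries, 165, 154 and 167 CPM with samuraciclib and 165, 146 and 179 CPM with YKL-5-124. The YKL-5-124 libraries spanned the DMSO range. In the fit, the log2 fold change was 0.14 ± 0.060 (adjusted p = 0.067) with YKL-5-124 and 0.13 ± 0.060 (adjusted p = 0.096) with samuraciclib. HSF2 was at 0.18 ± 0.078 (adjusted p = 0.0599) with YKL-5-124 and 0.23 ± 0.078 (adjusted p = 0.025) with samuraciclib. Activity of HSF1 is set largely by its protein state, which these counts do not measure.

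Cytosolic HSP90 was divided. HSP90AB1 (HSP90 beta), the most abundant member, stood at 3691, 4026 and 4001 CPM in the DMSO libraries, 3344, 3543 and 3299 CPM with samuraciclib and 2838, 3108 and 2866 CPM with YKL-5-124. The groups did not overlap and followed the order DMSO, samuraciclib, YKL-5-124 from high to low. The log2 fold change was -0.41 ± 0.050 (adjusted p = 1.90e-06) with YKL-5-124 and -0.20 ± 0.049 (adjusted p = 0.00269) with samuraciclib, below the fold threshold. HSP90AA1 (HSP90 alpha), the inducible isoform, stood at 3104, 3416 and 3387 CPM in the DMSO libraries, 3109, 3198 and 3014 CPM with samuraciclib and 3287, 3583 and 3210.4 CPM with YKL-5-124. The DMSO range overlapped both treated groups. Against DMSO, the log2 fold change was 0.025 ± 0.051 (adjusted p = 0.711) with YKL-5-124 and -0.088 ± 0.051 (adjusted p = 0.171) with samuraciclib. The promoters of both isoforms shown above hold a heat shock element. Of 5 co-chaperones, AHSA1, which stimulates the HSP90 ATPase, was higher at the adjusted p alone, at 0.28 ± 0.051 (adjusted p = 0.000198) with YKL-5-124 and 0.38 ± 0.051 (adjusted p = 1.00e-05) with samuraciclib. CHORDC1, an HSP90 partner with a heat shock element in its window, was higher as well, at 0.26 ± 0.062 (adjusted p = 0.00196) with YKL-5-124 and 0.31 ± 0.062 (adjusted p = 0.000479) with samuraciclib. FKBP4 (FKBP52), a partner of steroid receptors, was lower, at -0.28 ± 0.050 (adjusted p = 0.000128) with YKL-5-124 and -0.16 ± 0.050 (adjusted p = 0.0154) with samuraciclib. STIP1 (HOP), which bridges HSP70 and HSP90, was at -0.032 ± 0.044 (adjusted p = 0.574) with YKL-5-124 and -0.0052 ± 0.044 (adjusted p = 0.935) with samuraciclib, and ST13 (HIP) at -0.10 ± 0.047 (adjusted p = 0.0835) with YKL-5-124 and -0.055 ± 0.047 (adjusted p = 0.371) with samuraciclib.

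The 7 members of TRiC lay at or below 0.026 in both comparisons. CCT7 had the lowest values. Its levels were 607, 658 and 604 CPM in the DMSO libraries, 496, 488 and 499.5 CPM with samuraciclib and 470.0, 485 and 486 CPM with YKL-5-124. Every treated library was below every DMSO library. This gave a log2 fold change of -0.38 ± 0.047 (adjusted p = 3.26e-06) with YKL-5-124 and -0.33 ± 0.047 (adjusted p = 1.53e-05) with samuraciclib. With YKL-5-124, 5 of 7 subunits were lower at the adjusted p alone (CCT2, CCT4, CCT5, CCT7 and CCT8), against 25.2 percent of all genes. With samuraciclib 4 were lower (CCT3, CCT4, CCT5 and CCT7), against 23.1 percent of all genes. None passed the fold threshold in either comparison. Under scaling by library size alone these counts were 3 and 2 (16.7 and 19.2 percent of all genes), with 1 subunit higher with YKL-5-124 (35.6 percent of all genes). The founding subunit TCP1 stood at 529, 534 and 549 CPM in the DMSO libraries, 526, 537 and 533 CPM with samuraciclib and 526, 547 and 539.7 CPM with YKL-5-124. The 3 groups overlapped throughout. In the fit, the log2 fold change was 0.00091 ± 0.044 (adjusted p = 0.989) with YKL-5-124 and -0.014 ± 0.044 (adjusted p = 0.825) with samuraciclib. The counts of CCT5 and CCT4 may include reads of opposite-strand genes, which cover 30.8% and 16.9% of their exonic bases.

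In the ER, none of the 8 luminal HSP70, HSP90 and partner genes was called. HSPA5 (BiP), the central ER chaperone and a standard readout of ER stress, was lower rather than higher. It was measured at 566, 603 and 567 CPM in the DMSO libraries, 462, 448 and 449 CPM with samuraciclib and 479.7, 508 and 486 CPM with YKL-5-124. Both treated groups lay below DMSO, and samuraciclib was the lowest. The log2 fold change was -0.24 ± 0.047 (adjusted p = 0.000403) with YKL-5-124 and -0.35 ± 0.047 (adjusted p = 7.11e-06) with samuraciclib. HYOU1 (GRP170), the ER HSP110, stood at 460.0, 451 and 473 CPM in the DMSO libraries, 394, 391 and 368 CPM with samuraciclib and 350.0, 349.9 and 339 CPM with YKL-5-124. The groups did not overlap, with YKL-5-124 lowest. Against DMSO, the log2 fold change was -0.41 ± 0.046 (adjusted p = 7.64e-07) with YKL-5-124 and -0.26 ± 0.046 (adjusted p = 0.000144) with samuraciclib. HSP90B1 (GRP94) stood at 759, 816 and 832 CPM in the DMSO libraries, 784, 806 and 770.0 CPM with samuraciclib and 763, 805 and 785 CPM with YKL-5-124. The 3 groups overlapped. This gave a log2 fold change of -0.032 ± 0.048 (adjusted p = 0.605) with YKL-5-124 and -0.028 ± 0.048 (adjusted p = 0.665) with samuraciclib. DNAJC3 (p58IPK), which binds clients in the ER, was higher at the adjusted p alone, at 0.33 ± 0.070 (adjusted p = 0.000698) with YKL-5-124 and 0.36 ± 0.070 (adjusted p = 0.000378) with samuraciclib. DNAJB9, DNAJB11, SDF2L1 and HSPA13 had adjusted p of 0.051 or more in both comparisons, with log2 fold changes from -0.13 to 0.27.

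The lectin chaperones calnexin and calreticulin hold glycoproteins during folding. CALR stood at 803, 819.7 and 916 CPM in the DMSO libraries, 706, 744 and 724 CPM with samuraciclib and 589, 698 and 624 CPM with YKL-5-124. Treated libraries were all below DMSO, and YKL-5-124 was lowest. In the fit, the log2 fold change was -0.41 ± 0.062 (adjusted p = 2.59e-05) with YKL-5-124 and -0.22 ± 0.062 (adjusted p = 0.00642) with samuraciclib. CANX stood at 1200.2, 1228 and 1285 CPM in the DMSO libraries, 1220.0, 1253 and 1171 CPM with samuraciclib and 1011, 1087 and 999 CPM with YKL-5-124. The YKL-5-124 libraries lay below all others, whereas samuraciclib overlapped DMSO. The log2 fold change was -0.26 ± 0.049 (adjusted p = 0.000233) with YKL-5-124 and -0.027 ± 0.049 (adjusted p = 0.687) with samuraciclib. PDIA4 (ERp72), a disulfide isomerase, was higher at the adjusted p alone. It stood at 356, 361 and 362 CPM in the DMSO libraries, 444, 426 and 442 CPM with samuraciclib and 431, 439 and 447 CPM with YKL-5-124. Every treated library was above every DMSO library. Against DMSO, the log2 fold change was 0.29 ± 0.044 (adjusted p = 3.07e-05) with YKL-5-124 and 0.28 ± 0.044 (adjusted p = 4.52e-05) with samuraciclib. PDIA3 (ERp57), which works with the lectins, was at 0.061 ± 0.052 (adjusted p = 0.348) with YKL-5-124 and 0.10 ± 0.052 (adjusted p = 0.115) with samuraciclib, and PDIA6 at -0.073 ± 0.051 (adjusted p = 0.255) with YKL-5-124 and 0.12 ± 0.051 (adjusted p = 0.0766) with samuraciclib. Opposite-strand exons cover 25.2% of the exonic bases of PDIA6.

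Of the genes that sense or relay ER stress, XBP1, whose mRNA is spliced by ERN1 (IRE1), stood at 45.3, 46.6 and 46.4 CPM in the DMSO libraries, 51.0, 52.1 and 51.1 CPM with samuraciclib and 44.8, 44.5 and 46.5 CPM with YKL-5-124. The samuraciclib libraries were above the rest, and YKL-5-124 overlapped DMSO. This gave a log2 fold change of -0.028 ± 0.053 (adjusted p = 0.691) with YKL-5-124 and 0.16 ± 0.053 (adjusted p = 0.0212) with samuraciclib. ERN1 itself was at -0.064 ± 0.094 (adjusted p = 0.599) with YKL-5-124 and 0.16 ± 0.093 (adjusted p = 0.16) with samuraciclib. ATF6, a membrane-bound factor cut during stress, was at 0.19 ± 0.050 (adjusted p = 0.00453) with YKL-5-124 and 0.11 ± 0.051 (adjusted p = 0.0762) with samuraciclib. Gene counts do not separate spliced from unspliced XBP1. Of the 6 members with an ER stress element in their window (CALR, CANX, HSP90B1, HSPA5, PDIA6 and XBP1), 0 were higher and 3 lower at the adjusted p alone with YKL-5-124, with a median log2 fold change of -0.15, and 1 was higher and 2 lower with samuraciclib, with a median of -0.028. For the 6 with a full heat shock element (CHORDC1, DNAJA1, DNAJB6, HSP90AA1, HSP90AB1 and HSPA8), these counts were 1 and 4 with YKL-5-124 (median -0.13) and 2 and 1 with samuraciclib (median -0.012). For the 16 with the pair of heat shock units, which include these 6, they were 7 and 7 with YKL-5-124 (median 0.013). With samuraciclib they were 8 and 1 (median 0.11). Among all genes, 24.1 percent were higher and 25.2 percent lower with YKL-5-124, and 21.0 and 23.1 percent with samuraciclib.

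Counts were also summed over the 11 roles and expressed as percent of the DMSO mean, with ranges over the 3 libraries of a group. The small heat shock proteins, a sum set almost wholly by HSPB1, reached 164% to 222% in the YKL-5-124 libraries and 114% to 150% in the samuraciclib libraries, where DMSO spanned 95.2% to 103%. The BAG genes reached 115% to 129% in the YKL-5-124 libraries and 112% to 120% in the samuraciclib libraries, where DMSO spanned 98.5% to 102%. Of these BAG genes BAG3 alone was called, and their median log2 fold change was -0.22 with YKL-5-124 and -0.166 with samuraciclib. In both roles every treated library was above every DMSO library. The heat shock factors (99.7% to 100.3% in DMSO, 106% to 113% with samuraciclib, 101% to 118% with YKL-5-124) and the unfolded protein response genes (98.8% to 102%, 108% to 111% and 105% to 108%) were also above DMSO without overlap. The HSP70 and HSP110 sum, set mainly by HSPA8, spanned 95.3% to 107% in DMSO and overlapped both samuraciclib (106.95% to 112%) and YKL-5-124 (102% to 112%). TRiC was below DMSO (97.6% to 103%) without overlap, at 84.8% to 89.7% for YKL-5-124 and 89.8% to 90.9% for samuraciclib. ER HSP70, HSP90 and partner genes were likewise below (96.9% to 102% in DMSO, 88.6% to 91.4% with samuraciclib, 88.8% to 92.3% with YKL-5-124). Cytosolic HSP90 was just below, with the lowest DMSO library at 94.3% and the highest treated library at 93.5%. ER disulfide isomerases and lectins (96.3% to 104% in DMSO) were below DMSO with YKL-5-124 (86.5% to 94.8%) and overlapped it with samuraciclib (97.7% to 102%). J-domain proteins (97.0% to 103% in DMSO) were above DMSO with samuraciclib (104% to 108%) and overlapped it with YKL-5-124 (93.5% to 100.4%). The co-chaperones overlapped DMSO (97.1% to 103%) with both compounds, at 100.7% to 103% and 94.2% to 100.6%. These sums are dominated by the most abundant genes of each role and are descriptions without a test.

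**Figure D4:**
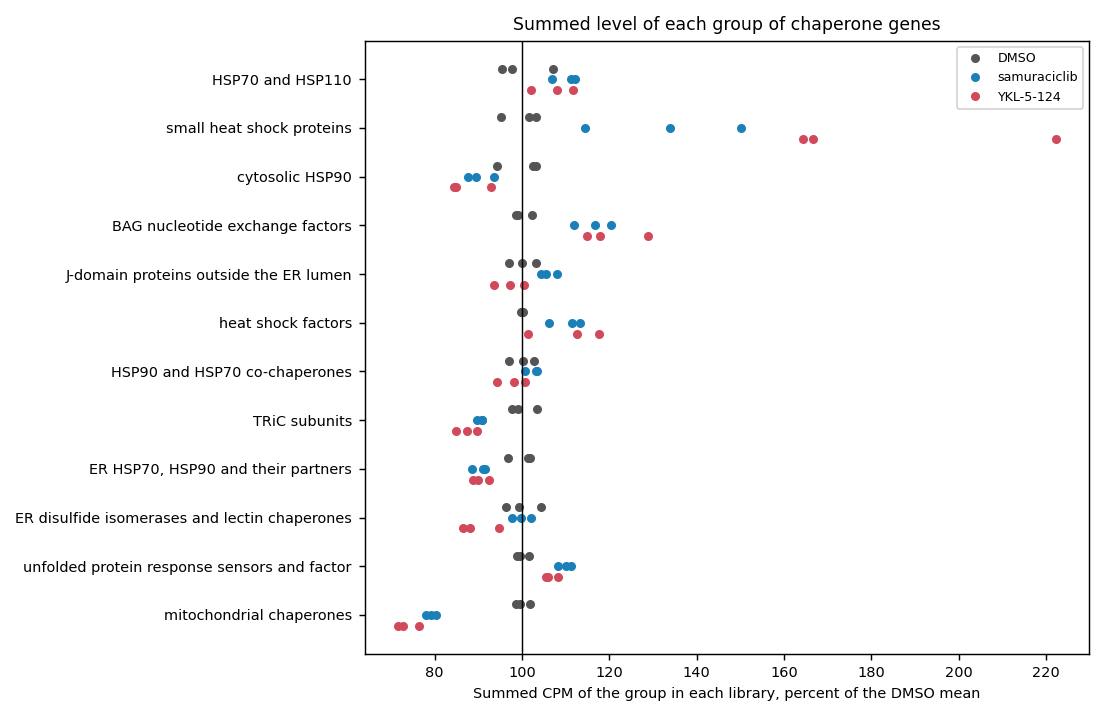
Summed CPM of each role in each library, as percent of the DMSO mean, with grey points for DMSO, blue for samuraciclib and red for YKL-5-124. The mitochondrial chaperones, which are not among the 55 members, are shown last. Small heat shock proteins reach 164% to 222% with YKL-5-124, while TRiC, cytosolic HSP90 and ER HSP70 and HSP90 reach at most 93.5% in any treated library.

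The compounds were compared directly at their shared dose of 250 nM, as 1 pair, with p-values adjusted over all 16065 genes. HSPA1A alone was called higher with YKL-5-124 than with samuraciclib (4.46 percent of all genes were), and 0 members were called lower (2.46 percent of all genes). The difference for HSPA1A was 0.55 ± 0.091 (adjusted p = 0.000333), with a 95% interval of 0.35 to 0.74. Without YKL-5-124 3 it was 0.44 (adjusted p = 0.00187), short of the fold threshold, as was the sum of HSPA1A and HSPA1B. HSPB1 was next, at 0.48 ± 0.098 (adjusted p = 0.00175) with an interval of 0.27 to 0.68, and was called without samuraciclib 3, YKL-5-124 1 or YKL-5-124 2 (0.54 to 0.57). At an unadjusted p below 0.05, 0 members were lower with YKL-5-124 beyond the fold threshold, and DESeq2 called 0 members lower.

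At the adjusted p alone, 3 members were higher with YKL-5-124 than with samuraciclib (11.8 percent of all genes), namely HSPA1A, HSPB1 and DNAJB2. DNAJB2 differed by 0.26 ± 0.063 (adjusted p = 0.00654). Another 11 were lower (13.2 percent of all genes), with DNAJA1 furthest. CANX differed by -0.23 ± 0.049 (adjusted p = 0.00196), HSP90AB1 by -0.21 ± 0.049 (adjusted p = 0.0049), CALR by -0.19 ± 0.062 (adjusted p = 0.0356) and XBP1 by -0.19 ± 0.053 (adjusted p = 0.0153). HSPA4L differed by -0.23 ± 0.081 (adjusted p = 0.0485), BAG4 by -0.25 ± 0.084 (adjusted p = 0.0382) and HYOU1 by -0.15 ± 0.046 (adjusted p = 0.0239). The remaining members below 0 were PDIA6, CCT8 and DNAJB6, at -0.19, -0.17 and -0.16. Scaled by library size alone, 9 members were higher (17.6 percent of all genes) and 3 lower (7.65 percent of all genes). The balance between the compounds moved with the scaling for members and for all genes. For other members the data bound the difference without showing equality. The intervals are per gene and not adjusted for the number of genes. An interval that excludes 0, as for BAG3, HSPA5, HSP90AA1 and ERN1, thus came without an adjusted p below 0.05. The 95% intervals were 0.025 to 0.25 for BAG3, -0.026 to 0.35 for HSPA1B, -0.21 to 0.021 for HSPA8, 0.020 to 0.22 for HSPA5, 0.0062 to 0.22 for HSP90AA1, -0.11 to 0.097 for HSP90B1 and -0.078 to 0.11 for TCP1. They were -0.15 to 0.12 for DNAJB1, -0.11 to 0.13 for HSF1, -0.087 to 0.097 for PDIA4, -0.030 to 0.18 for ATF6 and -0.42 to -0.034 for ERN1. For HSPB8 the interval reached from -0.80 to 0.76, too wide to compare the compounds.

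**Figure D5:**
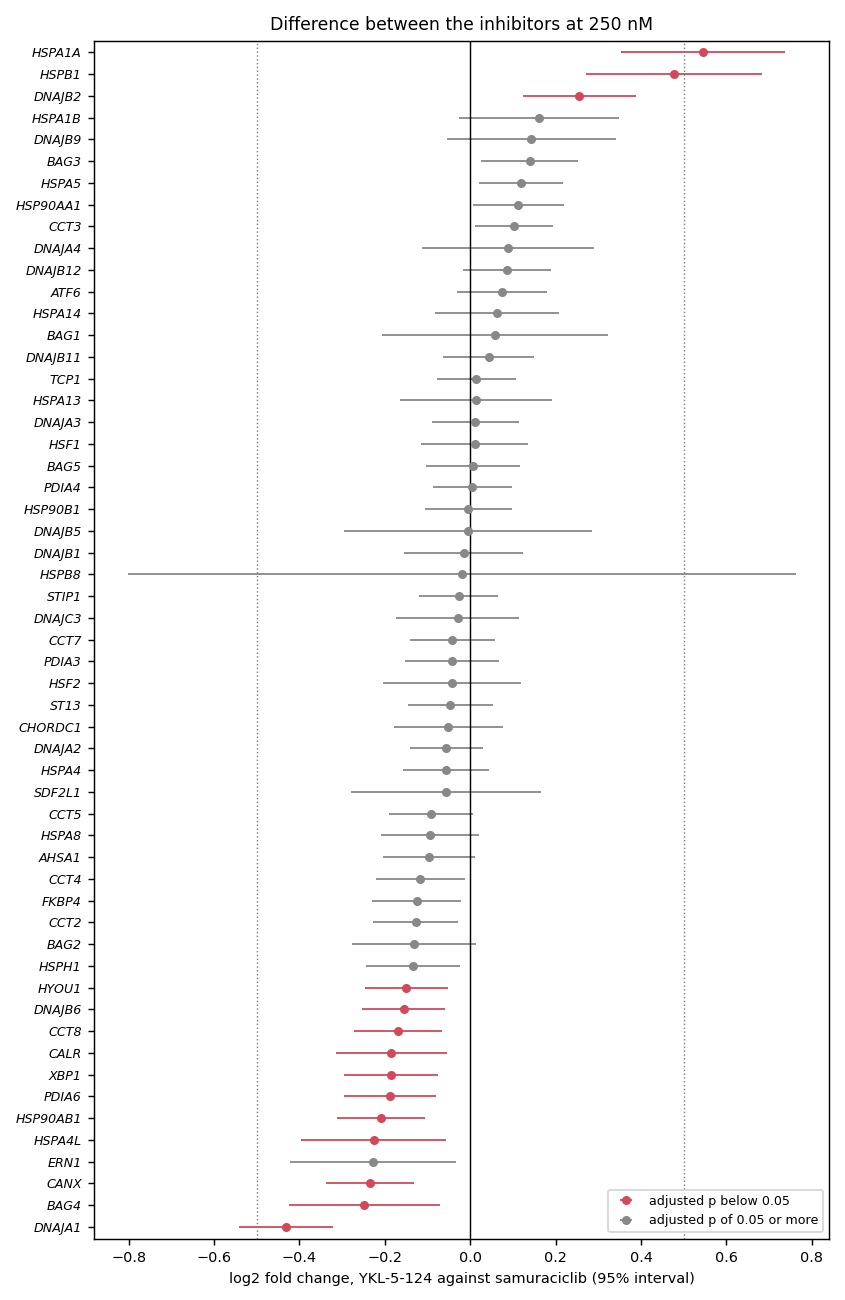
Log2 fold change of YKL-5-124 against samuraciclib for each of the 55 members, ordered by size, with unadjusted 95% intervals from the edgeR fit. Red marks an adjusted p below 0.05 and dotted lines -0.5 and 0.5. HSPA1A at 0.55 is the single point past the threshold, DNAJA1 is lowest at -0.43, and the widest interval belongs to HSPB8.

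Related genes outside the selection were counted from lists that had been chosen with earlier results of these data known. By the same rule, 11.9 percent of all genes rose and 9.93 percent fell with YKL-5-124, and 8.17 and 9.55 percent with samuraciclib. These shares stand beside every list count in this paragraph and the next. Of 28 further cytosolic chaperones and co-chaperones tested, 4 rose and 2 fell with YKL-5-124 (median log2 fold change 0.066), and 2 rose and 1 fell with samuraciclib (median 0.053). HSPA2, an HSP70 best known from germ cells, rose in both, by 1.38 ± 0.076 (adjusted p = 8.34e-11) with YKL-5-124 and 1.07 ± 0.077 (adjusted p = 4.39e-09) with samuraciclib. STUB1 (CHIP), the ubiquitin ligase of HSP70 clients, fell in both, with log2 fold changes of -0.51 ± 0.065 (adjusted p = 4.05e-06) with YKL-5-124 and -0.53 ± 0.065 (adjusted p = 3.26e-06) with samuraciclib. HSPA6 and CRYAB did not pass the filter on low counts. Of 14 prefoldin, CCT6 and TRiC-assisting genes, none rose and 1 fell with YKL-5-124 (median -0.178), and 1 rose and 1 fell with samuraciclib (median 0.02). UXT was the lower gene in both, at -0.57 ± 0.082 (adjusted p = 1.49e-05) with YKL-5-124 and -0.57 ± 0.082 (adjusted p = 1.74e-05) with samuraciclib. CCT6A, the TRiC subunit outside the selection, was at -0.39 ± 0.049 (adjusted p = 3.22e-06) with YKL-5-124 and -0.33 ± 0.049 (adjusted p = 2.61e-05) with samuraciclib.

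Of 26 further ER folding enzymes, 1 rose and 2 fell with YKL-5-124 (median -0.06), and none rose and 2 fell with samuraciclib (median -0.057). The lower genes were ERP29 and GANAB, the latter the catalytic subunit of glucosidase II. GANAB was at -0.66 ± 0.051 (adjusted p = 6.98e-09) with YKL-5-124 and -0.65 ± 0.051 (adjusted p = 1.21e-08) with samuraciclib. ERO1B, an oxidase that recharges disulfide isomerases, rose with YKL-5-124 (0.79 ± 0.11, adjusted p = 1.45e-05) and was at -0.097 ± 0.12 (adjusted p = 0.545) with samuraciclib, a difference of 0.89 ± 0.11 (adjusted p = 2.75e-05). Of 27 genes of ER-associated degradation and stress signalling, 1 rose and 3 fell with YKL-5-124 (median 0.088), and none rose and 3 fell with samuraciclib (median 0.087). ATF4, the main transcription factor of the integrated stress response, had the smallest adjusted p of the list, at -0.84 ± 0.045 (adjusted p = 5.96e-11) with YKL-5-124 and -0.46 ± 0.044 (adjusted p = 1.43e-07) with samuraciclib, the latter short of the fold threshold. EDEM2, which trims mannose from misfolded glycoproteins, was the gene that rose, at 0.84 ± 0.11 (adjusted p = 4.36e-06) with YKL-5-124 and 0.40 ± 0.11 (adjusted p = 0.00732) with samuraciclib. PPP1R15A (GADD34), which ends translational arrest, fell in both, with log2 fold changes of -0.72 ± 0.065 (adjusted p = 5.30e-08) with YKL-5-124 and -0.71 ± 0.065 (adjusted p = 8.29e-08) with samuraciclib. DDIT3 (CHOP) and ATF3, named after their values had been seen, both fell with samuraciclib. DDIT3 was at -0.20 ± 0.14 (adjusted p = 0.239) with YKL-5-124 and -0.73 ± 0.14 (adjusted p = 0.00038) with samuraciclib, a difference of 0.53 ± 0.14 (adjusted p = 0.0111). ATF3 was at -0.14 ± 0.12 (adjusted p = 0.368) with YKL-5-124 and -0.86 ± 0.13 (adjusted p = 2.76e-05) with samuraciclib, a difference of 0.72 ± 0.13 (adjusted p = 0.000596). Of 8 mitochondrial chaperones, none rose and 2 fell in each comparison with DMSO (medians -0.321 and -0.226). HSPD1 (HSP60) fell in both, with samuraciclib at -0.51 ± 0.048 (adjusted p = 1.18e-07). TRAP1, the mitochondrial HSP90, fell with YKL-5-124 (-0.52 ± 0.049, adjusted p = 1.00e-07) and was at -0.23 ± 0.049 (adjusted p = 0.000922) with samuraciclib. Between the compounds, 0 genes of the mitochondrial list were called (4.46 percent of all genes were called higher and 2.46 percent lower).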

How the data were processed

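Bulk RNA-seq was analysed in 9 libraries of FaDu cells (3 of each group), with groups taken from the sample titles and treatments. The authors deposited raw counts per gene, which per the labels came from HISAT2 and featureCounts 2.0.6 on GRCh38; the strand setting is not given in the sources used here. Genes passing filterByExpr were TMM-scaled and tested with the edgeR 4.0.16 quasi-likelihood F-test (R 4.3.3), all 9 libraries in 1 fit, with Benjamini-Hochberg adjustment over 16065 genes. Calls needed an adjusted p below 0.05 and a log2 fold change beyond 0.5. Standard errors (SE) were obtained as the absolute log2 change divided by the square root of F. Library totals were 18096180 to 28018126 counts, and low counts limit HSPB8 most. Members and lists were chosen with earlier results of these data known. All members are accounted for, and up to 4 further genes per pathway list were named by smallest adjusted p, except 1 that is not reported here. Alternatives were other scalings, filters, thresholds, DESeq2 1.42.0, thinned counts, a replicate block and libraries left out. The fit was tested on simulated data. Libraries with the same replicate number were checked for shared deviations, and the numbers were not treated as pairs. No library pair appeared to be a duplicate.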

Additional observations from a re-analysis of the deposited data

How the results depend on the processing

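Without a fold threshold the counts of members called higher and lower were 17 and 18 with YKL-5-124 against DMSO, 20 and 12 with samuraciclib against DMSO, and 3 and 11 between the compounds. The matching shares of all genes are given with these counts above. With a log2 fold change beyond 1, 3, 2 and 0 members were called higher in these comparisons, against 5.07, 2.93 and 1.21 percent of all genes. Between the compounds the single higher member became 0 when tested against the threshold itself (glmTreat), 0 with HSPA1A and HSPA1B summed, and 2 (HSPA1A and HSPB1) by library size alone, and ranged from 0 to 2 with 1 library left out. With 1 library left out, 6 to 7 members were higher with YKL-5-124 and 4 to 6 with samuraciclib. Counting the second row named HSPA14, chosen after seeing the data, gave 1 lower member with each compound. Same-numbered libraries correlated in their deviations by -0.056 to 0.173. The value of 0.173, for samuraciclib 2 with YKL-5-124 2, was the highest between groups. DMSO 3 correlated with these libraries by 0.146 and 0.148, and all of them are low in RN7SL2. What these libraries share was not tested. With the replicate number as a block, 7, 6 and 1 members were called higher and 0 lower in each comparison. No call reversed direction under any of the alternatives run. The cause of the changes was not tested. Depth limits HSPB8, at 5 to 22 counts per library.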
